A study of Mus musculus with 18 samples.

Results

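The 8 genes described here, Perp, Dsp, Jup, Pkp1, Pkp2, Pkp3, Dsg2 and Dsc2, are a listed set of desmosome genes, taken by mouse symbol from the 54752 genes of the count table, where each matched 1 Ensembl identifier. They were followed through 18 RNA sequencing libraries of mouse ovarian cancer material in 6 groups of 3. HM-1 cells (strain label B6C3F1) and ID8 cells (strain label C57BL6) were each grown in a medium of their own and sequenced in culture as controls and as cells labelled Cd276KO, and HM-1 controls and HM-1 Cd276KO cells were also sequenced as whole tumors, taken on day 10 after injection into the skin of B6C3F1 mice. Cd276 encodes B7-H3, a surface protein of the B7 family. How the knockout was made, whether a line is 1 clone or a pool, what the controls received, and whether a tumor library came from 1 mouse are not stated by the labels, so the knockout and a difference between clones cannot be told apart, and p-values measure only the spread between these libraries. A whole tumor also holds cells of the host mouse.

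Desmosomes are spot-like junctions that join neighbouring epithelial cells and tie the junction to the keratin filaments inside each cell. Desmosomal cadherins (desmogleins and desmocollins, here Dsg2 and Dsc2) bridge the gap between the cells. The armadillo proteins plakoglobin (Jup) and the plakophilins (Pkp1, Pkp2 and Pkp3) bind the cadherin tails inside the cell, and desmoplakin (Dsp), a plakin, links them to keratin. Perp is a small membrane protein of the PMP-22 family, known as a target of p53 and p63, which is needed for normal desmosomes in stratified epithelium. Dsg2, Dsc2 and Pkp2 are the forms typical of simple epithelium, while Pkp1 is best known from the epidermis, and Jup also serves adherens junctions.

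The genes lie on 7 chromosomes of GRCm38, in the GENCODE M21 annotation. Perp is at chromosome 10, 18845020 to 18857073, on the plus strand, and Dsp at chromosome 13, 38151294 to 38198577, on the plus strand. Jup is at chromosome 11, 100368958 to 100397763, on the minus strand. The plakophilins are at chromosome 1, 135871395 to 135919207 (Pkp1, minus), chromosome 16, 16213318 to 16272712 (Pkp2, plus), and chromosome 7, 141078218 to 141090510 (Pkp3, plus). The cadherins share chromosome 18, with Dsc2 from 20030633 to 20059554 on the minus strand and Dsg2 from 20558074 to 20604521 on the plus strand. Small annotated genes overlap Dsp, Pkp1 and Dsg2, but none had more than 6 counts in a library.

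Total counts were between 17349082 and 30959773 per library. In control cells of HM-1, 6 of 8 listed ovarian surface and mesothelial markers had counts (Upk3b and Bnc1 had none), with a summed level of 22.1 to 24.4 CPM (counts per 1000000 of the library total), against 8 of 8 and 1222 to 1285 CPM in ID8 controls. Cd276 was lower in HM-1 cells labelled Cd276KO, at 46.56 ± 1.53 CPM (SD, n = 3) against 86.41 ± 10.6 CPM in controls (log2 fold change -0.85, edgeR adjusted p = 0.00146). It was 19.37 ± 1.45 CPM against 20.93 ± 0.30 CPM in ID8 cells (-0.04, adjusted p = 0.692), so gene counts do not check the ID8 label, and it was 86.6 ± 12.3 CPM against 121.7 ± 18.1 CPM in tumors (-0.45, adjusted p = 0.105). Within the HM-1 control cells, library 1 stood apart from libraries 2 and 3, as the chi-square value averaged over genes was 67.4 and 65.5 to these and 1.58 between them. Control tumor 3 stood apart among the tumors. The 16 keratinocyte markers summed to 365.6 CPM there, against 12.9 and 13.5 CPM in control tumors 1 and 2 and 12.7 to 16.4 CPM in the Cd276KO tumors, and all 16 were highest in it. Its fibroblast markers summed to 472.7 CPM, against 17671 and 5791 CPM in control tumors 1 and 2 and 3566 to 6274 CPM in Cd276KO tumors. Its endothelial markers summed to 67.6 CPM, against 268.7 and 150.3 CPM in control tumors 1 and 2 and 125.0 to 207.0 CPM in Cd276KO tumors. The basal keratins Krt5 and Krt14 stood at 51.4 and 107.8 CPM in control tumor 3 and at no more than 0.14 CPM in the other 5 tumors. The suprabasal keratin Krt1 stood at 19.7 CPM against at most 0.06 CPM, and Krt10 at 20.9 CPM against 6.75 to 7.32 CPM. Of the 8 desmosome genes 7, with Jup as the exception, were also highest in that tumor, and values are therefore given with and without it.

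The level of Dsp moved in every Cd276KO comparison, and Jup passed the test in none. Whether promoter sequence plays a part in this was not tested. Only the promoters of Dsp and Jup are shown, as no promoter sequence was matched for the other listed genes. Each is the 250 bases before the RefSeq gene start (GRCm38.p6), read 5′ to 3′ on the gene's own strand, chr13:38151044-38151293 for Dsp (plus) and chr11:100397791-100398040 for Jup (minus). Capitals mark GC boxes (GGGCGG, or CCGCCC for the other strand).
Dsp: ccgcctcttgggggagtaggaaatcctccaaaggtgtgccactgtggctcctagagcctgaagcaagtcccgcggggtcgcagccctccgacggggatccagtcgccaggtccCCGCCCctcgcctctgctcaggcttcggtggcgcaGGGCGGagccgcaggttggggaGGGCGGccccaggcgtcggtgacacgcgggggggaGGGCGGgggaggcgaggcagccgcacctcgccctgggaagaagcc
Jup: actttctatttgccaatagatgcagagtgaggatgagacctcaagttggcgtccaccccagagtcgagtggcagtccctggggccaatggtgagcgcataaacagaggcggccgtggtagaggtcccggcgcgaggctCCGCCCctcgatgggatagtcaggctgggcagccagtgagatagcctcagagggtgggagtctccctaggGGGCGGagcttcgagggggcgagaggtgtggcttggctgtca
The Dsp stretch held 4 GC boxes, 22 CpG dinucleotides and 72.4% G and C, and the Jup stretch held 2 GC boxes, 13 CpG dinucleotides and 62.0% G and C. Across the 32817 stretches of the same length in the table, 32.7% held at least 1 GC box, the median CpG count was 6 and the median content of G and C was 52.4%. Neither stretch held a TATA box (TATAAA or TTTATA, in 12.4% of all stretches), an E-box of the Snail and Zeb type (CACCTG or CAGGTG, 17.2%) or a Grainyhead core (AACCNGTT or AACNGGTT, 1.78%). These are letter matches on either strand in a short window, not binding sites.

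The 2 control lines expressed different sets of desmosome genes. Per length, the HM-1 controls were led by Jup at 22.2 ± 2.11 CPM per kilobase of exon (SD, n = 3), followed by Perp at 8.18 ± 1.13 and Pkp2 at 7.32 ± 0.34, whose libraries overlapped. Dsp at 0.43 ± 0.16 and Pkp3 at 0.23 ± 0.04 CPM per kilobase came far below, and Dsc2, Pkp1 and Dsg2 had 5, 4 and 1 counts over the 3 libraries. The HM-1 controls thus had almost no RNA of either listed cadherin, the proteins that span the junction. In the ID8 controls Perp led at 57.6 ± 0.86 CPM per kilobase, followed by Jup at 37.5 ± 2.91, Dsg2 at 9.27 ± 0.33, Pkp2 at 4.90 ± 0.11, Pkp1 at 2.59 ± 0.16, Dsc2 at 2.08 ± 0.07 and Dsp at 1.03 ± 0.05. No neighbours in that order had overlapping libraries. Pkp3 came last with 2 counts over the ID8 controls.

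All 8 genes passed the test between the control lines, against 58.3% of all 13732 genes tested (edgeR quasi-likelihood test, Benjamini-Hochberg adjusted p under 0.05). Of them 6 were higher in ID8, as 28.8% of all genes were, and 2 were lower, as 29.6% were. Pkp1, Dsg2, Dsc2 and Pkp3 passed the filter on low counts only through the line where they were high. Their direction was thereby fixed and a call was likely, so these shares say little about them. Perp stood at 112.1, 114.3 and 111.0 CPM in the ID8 controls and at 18.5, 15.03 and 14.4 CPM in the HM-1 controls (log2 fold change 2.78 ± 0.13 (SE), adjusted p = 6.53e-07). The desmoglein Dsg2 stood at 76.8, 79.3 and 73.8 CPM in ID8 and had 1 count in HM-1, a ratio of 5117 (95% interval 918.1 to 202100, counting error only). The desmocollin Dsc2 had 931 counts against 5 (ratio 146.4, interval 62.5 to 452.1), and Pkp1 had 1100 against 4 (ratio 216.3, interval 84.2 to 795.2). Every library of ID8 was above every library of HM-1 for these 4 genes, and the lines were apart in this way for 67.2% of all genes tested. Dsp (1.20 ± 0.23) and Jup (0.71 ± 0.10) were higher in ID8 by smaller amounts, and Dsp was not called in the fit over all 18 libraries (1.19, adjusted p = 0.0609). Pkp2 was lower in ID8 (-0.62 ± 0.08, adjusted p = 0.000374), and so was Pkp3, the plakophilin found across most epithelia, with 2 counts against 56 (ratio 35.6, interval 9.41 to 301.2). The line, its strain and its medium cannot be told apart in this comparison.

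**Figure D1:**
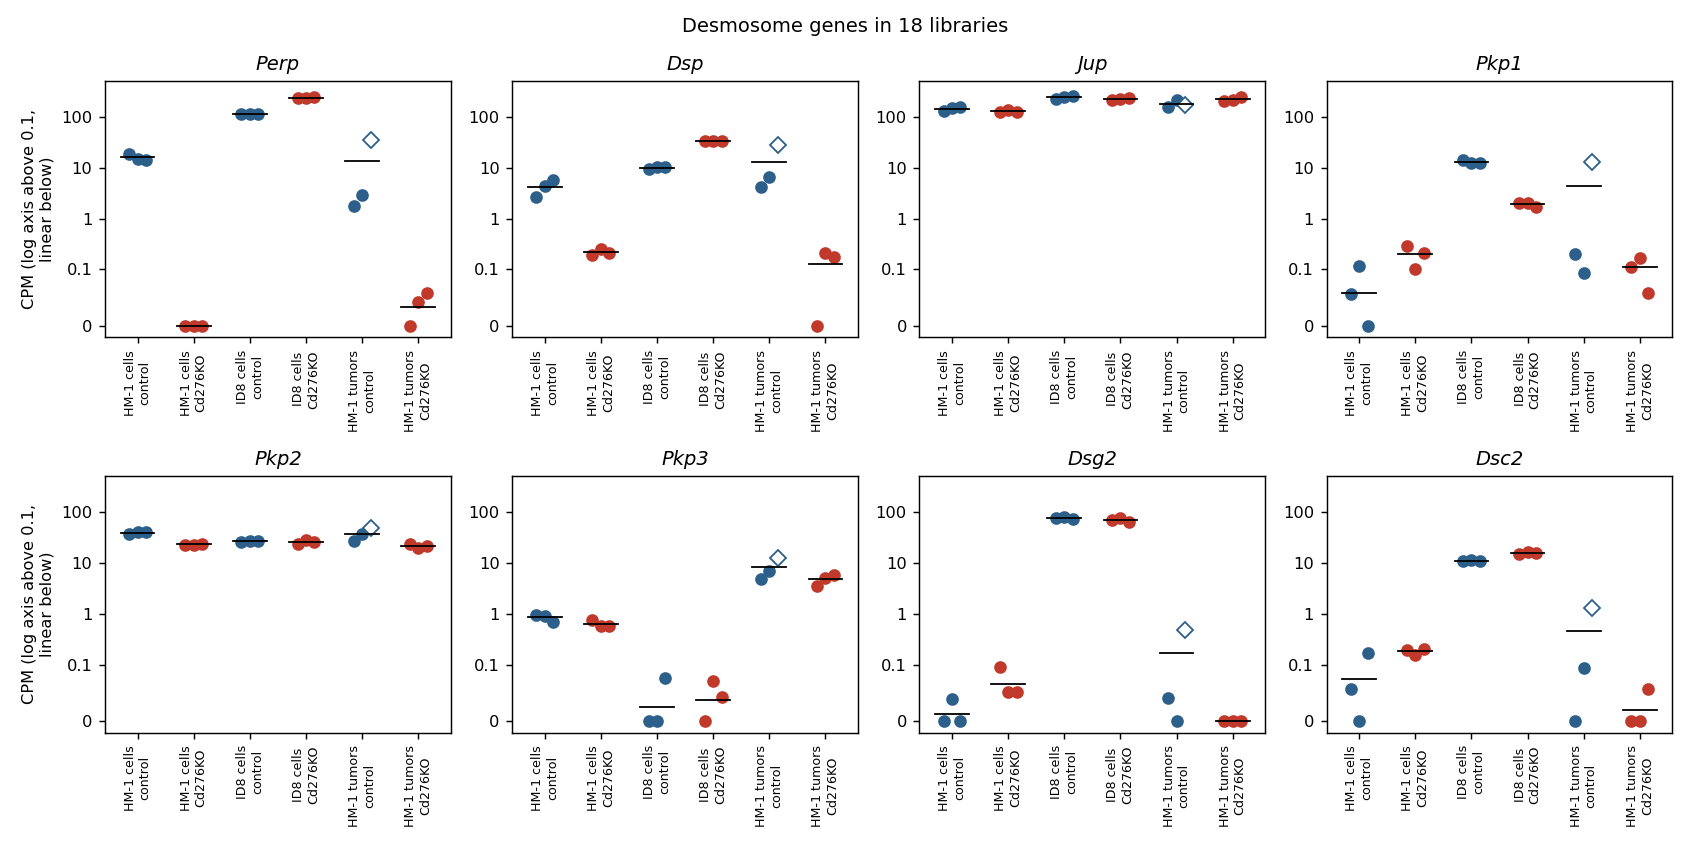
Level of each of the 8 desmosome genes in CPM (y axis, logarithmic above 0.1 and linear below) in 6 groups of 3 libraries (x axis). Filled points are libraries, black bars are group means, blue is control, red is Cd276KO, and the open diamond is control tumor 3; Perp is at 0 in the 3 HM-1 Cd276KO cell libraries and between 228 and 241 CPM in the 3 ID8 Cd276KO libraries.

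In HM-1 cells labelled Cd276KO, Perp had no count and Dsp was 19.9-fold lower by counts, while Jup was not called. Of the 8 genes 5 had enough counts to be tested, and 3 of these were lower and none higher, against 27.7% of all 12457 genes called, 16.1% as lower and 11.6% as higher. Perp and Dsp passed the filter on low counts only through the controls, so lower was the only call open to them. The share of lower genes therefore says little about Perp and Dsp. Perp stood at 18.5, 15.03 and 14.4 CPM in the controls, 1048 counts in all, and at 0 counts in each of the 3 Cd276KO libraries. Taken against the 3 counts that a total of 0 allows over the group, or 0.05 CPM, Perp was at least 313.7-fold lower (adjusted p = 0.000146; the fitted log2 value of -11.38 depends on the prior count). Dsp stood at 2.61, 4.30 and 5.62 CPM in the controls and at 0.19, 0.26 and 0.21 CPM in the Cd276KO cells. That is 288 against 13 counts, a ratio of 19.9 (95% interval 11.5 to 37.8), with a log2 fold change of -4.20 ± 0.39 (adjusted p = 0.000537). For Perp and Dsp the groups did not overlap, which held for 53.0% of all genes tested.

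The armadillo genes moved less. Pkp2, a plakophilin of simple epithelium and heart muscle, stood at 37.2, 39.95 and 40.6 CPM in the HM-1 controls and at 22.7, 22.5 and 23.7 CPM in the Cd276KO cells (-0.73 ± 0.08, adjusted p = 0.000773). Jup stood at 127.7, 147.8 and 153.6 CPM against 123.4, 133.0 and 125.2 CPM, with overlapping groups (-0.13 ± 0.09, adjusted p = 0.313). Without HM-1 control library 1, its lowest control, Jup was called lower (-0.19, adjusted p = 0.000115), and the calls of Perp, Dsp and Pkp2 held at -11.30, -4.42 and -0.76. Pkp3 was low at 0.68 to 0.96 CPM in controls and 0.56 to 0.76 CPM in Cd276KO cells (-0.37 ± 0.26, adjusted p = 0.360). Pkp1, Dsg2 and Dsc2 had 4, 1 and 5 counts in the controls and 12, 4 and 11 in the Cd276KO cells, too few for the test. Per length, Jup and Pkp2 held 81.2% and 17.6% of the summed level of the 8 genes in the HM-1 Cd276KO cells.

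The summed levels of several marker lists of other cell types moved with these groups. In HM-1 control and Cd276KO cells the hair follicle markers summed to 1.85 to 4.42 and 0.31 to 0.67 CPM (5 and 8 of 9 with a count), the adipocyte markers to 2.16 to 2.88 and 10.5 to 11.3 CPM (5 and 4 of 5), and the ovarian surface and mesothelial markers to 22.1 to 24.4 and 58.7 to 65.4 CPM (6 and 8 of 8). Most of the mesothelial sum was Msln, at 12.2 to 14.5 and 44.1 to 49.6 CPM, while Wt1 and Upk3b had at most 1 count in a library. The endothelial markers summed to 4.14 to 4.44 and 1.74 to 2.58 CPM (5 and 7 of 7 with a count). Most of that sum was Pecam1, at 3.29 to 3.68 and 1.33 to 2.11 CPM. The leukocyte markers summed to 6.07 to 6.30 and 4.25 to 4.90 CPM (6 and 6 of 8, with Cd3e and Cd3d at 0 in both groups), and the skeletal muscle markers to 1.58 to 2.45 and 0.97 to 1.44 CPM (7 and 4 of 8). The keratinocyte markers were 8.40 to 10.5 and 9.93 to 10.7 CPM (9 and 11 of 16). Their part in the result was not tested.

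In ID8 cells labelled Cd276KO, Perp and Dsp were higher, Dsc2 was higher by a smaller amount, and Pkp1 was lower. Of 7 genes tested 3 were higher and 1 lower, against 60.7% of all 12932 genes called, 29.4% as higher and 31.3% as lower, so the number of called genes is near that of all genes. Perp stood at 112.1, 114.3 and 111.0 CPM in the ID8 controls and at 234.6, 228.1 and 240.8 CPM in the Cd276KO cells (1.14 ± 0.05, adjusted p = 2.64e-14). Dsp stood at 9.43, 10.4 and 10.1 CPM against 33.6, 33.9 and 32.9 CPM (1.82 ± 0.08, adjusted p = 3.61e-15). In these genes all 3 Cd276KO libraries lay above all 3 controls with little spread, and such separation was seen in 64.3% of all genes tested.

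Pkp1, whose protein is abundant in the upper epidermis, stood at 13.9, 12.5 and 12.6 CPM in the ID8 controls and at 2.02, 2.03 and 1.65 CPM in the Cd276KO cells (-2.69 ± 0.13, adjusted p = 3.43e-14). The cadherins differed from each other: Dsc2 stood at 10.8, 11.4 and 10.7 CPM against 15.1, 16.4 and 15.4 CPM (0.59 ± 0.09, adjusted p = 4.18e-06), while Dsg2 stood at 76.8, 79.3 and 73.8 CPM against 70.5, 74.3 and 61.9 CPM (-0.08 ± 0.07, adjusted p = 0.333). Jup (-0.03 ± 0.06, adjusted p = 0.695) and Pkp2 (0.05 ± 0.08, adjusted p = 0.602) had overlapping groups and were not called. Pkp3 had 2 counts in the controls and 3 in the Cd276KO cells. Per length, Perp held 50.1% of the summed level of the 8 genes in the ID8 controls and 68.7% in the Cd276KO cells, and Dsp passed Pkp1 and Dsc2 in the order. The keratinocyte markers went in summed level from 146.4 to 175.5 CPM in the ID8 controls (11 of 16 with a count) to 255.1 to 259.0 CPM in the Cd276KO cells (10 of 16, with Krt5 and Krt1 at 0), and the ovarian surface and mesothelial markers went from 1222 to 1285 CPM to 2201 to 2264 CPM, with all 8 at a count in each group. Single genes of these lists differed in direction. Krt14 went from 8.39 to 8.99 CPM down to 5.60 to 6.09 CPM and Trp63 from 0.57 to 0.91 down to 0.18 to 0.52 CPM. Krt10 went from 3.81 to 5.28 up to 6.59 to 7.39 CPM. Upk3b was 262.6 to 302.6 and 934.4 to 995.2 CPM, Wt1 550.0 to 585.8 and 662.8 to 686.0 CPM, and Msln 231.6 to 234.6 and 212.9 to 221.0 CPM. The fibroblast markers were 506.4 to 569.3 CPM and 373.3 to 388.0 CPM (5 of 6 each, with Lum at 0). Lists at lower levels were apart too: hair follicle markers at 0.52 to 1.02 and 0.19 to 0.25 CPM (4 and 2 of 9), endothelial markers at 1.02 to 1.60 and 0.18 to 0.30 CPM (1 and 2 of 7), and skeletal muscle markers at 2.84 to 3.34 and 3.55 to 4.27 CPM (5 and 5 of 8). The part of these markers in the result was not tested.

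The difference between the Cd276KO effects of the lines was tested over the 12 culture libraries. It was called for 4 of the 8 genes, with 3 of these effects higher in ID8 and 1 lower, against 40.4% of 14208 genes, 19.8% as higher and 20.7% as lower. The effect on Dsp was higher in ID8 than in HM-1 by 6.03 ± 0.35 on the log2 scale (adjusted p = 5.44e-08), and that on Perp by a fitted 12.71 (adjusted p = 9.74e-10), which rests on a group at 0. Pkp2 differed by 0.77 ± 0.11 (adjusted p = 0.000156). Pkp1 differed by -4.40 ± 0.70 (adjusted p = 0.000283), with 4 and 12 counts in the HM-1 groups. For Jup the difference was 0.09 ± 0.12 (adjusted p = 0.593), and the differences for Pkp3 (1.01 ± 1.25), Dsg2 (-1.96 ± 0.92) and Dsc2 (-0.70 ± 0.63) were not called. Perp and Dsp therefore moved in opposite directions in the lines, down in HM-1 and up in ID8.

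**Figure D2:**
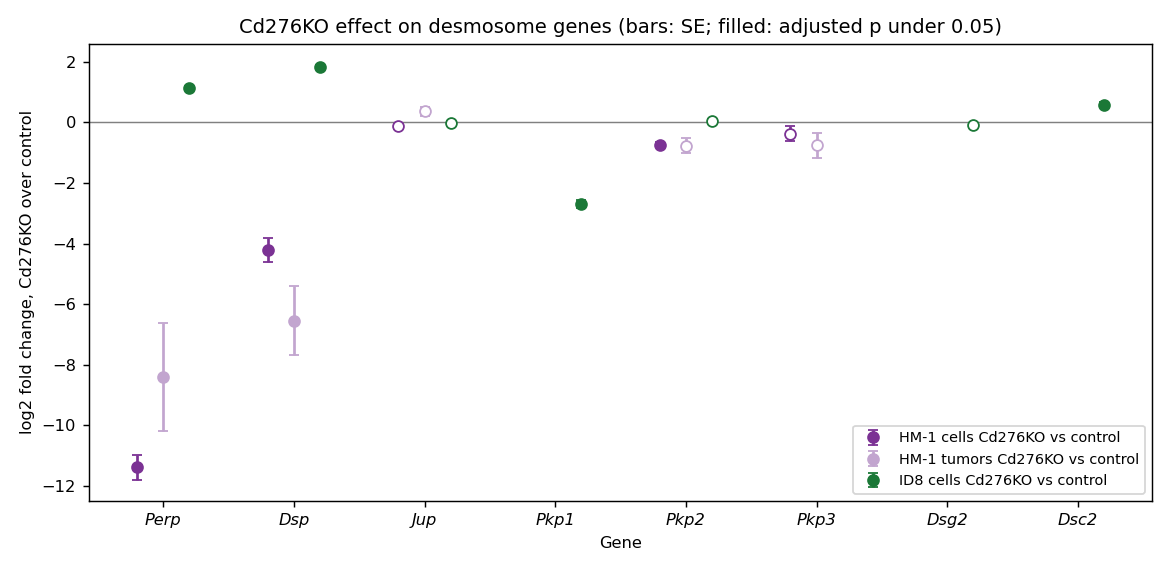
Log2 fold change of Cd276KO over control (y axis) for each desmosome gene (x axis) in HM-1 cells, HM-1 tumors and ID8 cells; bars are standard errors, filled points have an adjusted p under 0.05, and genes with too few counts for the test have no point. Perp and Dsp are below 0 in HM-1 cells and tumors and above 0 in ID8 cells; the Perp values in HM-1 rest on groups with 0 and 2 counts.

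In the tumors, Perp and Dsp were lower in the Cd276KO group, as in the HM-1 cultures. Of 5 genes tested 2 were lower and none higher, against 5.38% of all 15345 genes called, 3.18% as lower and 2.2% as higher. Both called genes, Perp and Dsp, passed the filter on low counts only through the control tumors. Lower was thus the only call open to them, and the share of lower genes says little about them. Perp stood at 1.78, 2.91 and 35.3 CPM in control tumors 1, 2 and 3 and at 0, 0.04 and 0.06 CPM in the Cd276KO tumors, which held 2 counts between them (adjusted p = 0.0483). The ratio of counts was 353 (95% interval 97.4 to 2920), and 67.7 (interval 18.3 to 566.3) without control tumor 3, where the call held (adjusted p = 0.00542). Dsp stood at 4.17, 6.66 and 27.8 CPM in the control tumors and at 0, 0.21 and 0.17 CPM in the Cd276KO tumors, or 8 counts (adjusted p = 0.0335). Its ratio was 87.7 (interval 44.3 to 203.8), and 39.1 (interval 19.5 to 91.6) without control tumor 3 (adjusted p = 0.00801). These intervals cover counting error only and leave out the spread between tumors. With all tumors, the edgeR log2 fold changes were -8.41 ± 1.79 (SE) for Perp and -6.54 ± 1.14 for Dsp. Every control tumor lay above every Cd276KO tumor for Perp and Dsp, which held for 34.8% of all genes tested. The calls of Perp and Dsp were lost without control tumor 2 (adjusted p = 0.0601 and 0.0560) and without any 1 of the Cd276KO tumors (0.159 to 0.202 for Perp and 0.113 to 0.172 for Dsp).

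The other members were not called in the tumors by edgeR with all tumors. Over 13 alternative fits Pkp2 was called in 3, Jup in 1 and Pkp3 in 0. Of the 5 members tested DESeq2 called 2 and voom 3, against 2465 and 3177 of all 15345 genes. Jup stood at 152.8, 207.8 and 169.2 CPM in the control tumors and 202.2, 213.3 and 248.0 CPM in the Cd276KO tumors (0.36 ± 0.14, adjusted p = 0.180). Pkp2 stood at 26.6, 36.0 and 48.4 CPM against 23.0, 19.5 and 21.2 CPM, without overlap (-0.77 ± 0.25, adjusted p = 0.121), and without control tumor 3 the log2 fold change was -0.48 (adjusted p = 0.119). Pkp3 stood at 4.82, 6.89 and 12.6 CPM against 3.51, 5.11 and 5.65 CPM (-0.76 ± 0.42, adjusted p = 0.313). The remaining members were close to 0 except in control tumor 3. Pkp1 had 246 counts there and 2 to 5 in the other control tumors, Dsc2 had 25 against 0 and 2, and Dsg2 had 9 against 1 and 0, while the Cd276KO tumors held 7, 1 and 0 counts in all. None of these 3 passed the filter on low counts.

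Markers of other cell types moved with the tumor groups as well. The summed level of 8 leukocyte markers was 763.6 to 1302 CPM in the control tumors and 307.4 to 629.3 CPM in the Cd276KO tumors, with a count for all 8 in each group. Of 8 skeletal muscle markers the sum was 2.34 to 145.0 CPM against 123.4 to 947.9 CPM, again with all 8 at a count in each group. Of 9 hair follicle markers, of which Krt25 and Krt72 had no count in the control tumors and Krt25, Krt71 and Krt72 none in the Cd276KO tumors, the sum was 60.1 CPM in control tumor 3, 6.92 and 6.0 CPM in control tumors 1 and 2, and 1.73 to 3.70 CPM in the Cd276KO tumors. The ovarian surface and mesothelial markers summed to 133.3 to 177.4 CPM against 96.2 to 129.9 CPM (6 and 5 of 8 with a count). Most of that sum was Msln, at 100.4 to 169.1 CPM against 72.1 to 91.8 CPM. The 5 adipocyte markers summed to 2.19 to 5.02 CPM against 5.29 to 42.8 CPM (4 and 5 with a count). The keratinocyte markers summed to 12.9 and 13.5 CPM in control tumors 1 and 2 and 12.7 to 16.4 CPM in the Cd276KO tumors. In HM-1 control cells in culture they summed to 8.40 to 10.5 CPM. The part of all these cell types in the Perp and Dsp values was not tested. In bulk tissue, fewer cells of a type and less RNA per cell cannot be told apart.

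**Figure D3:**
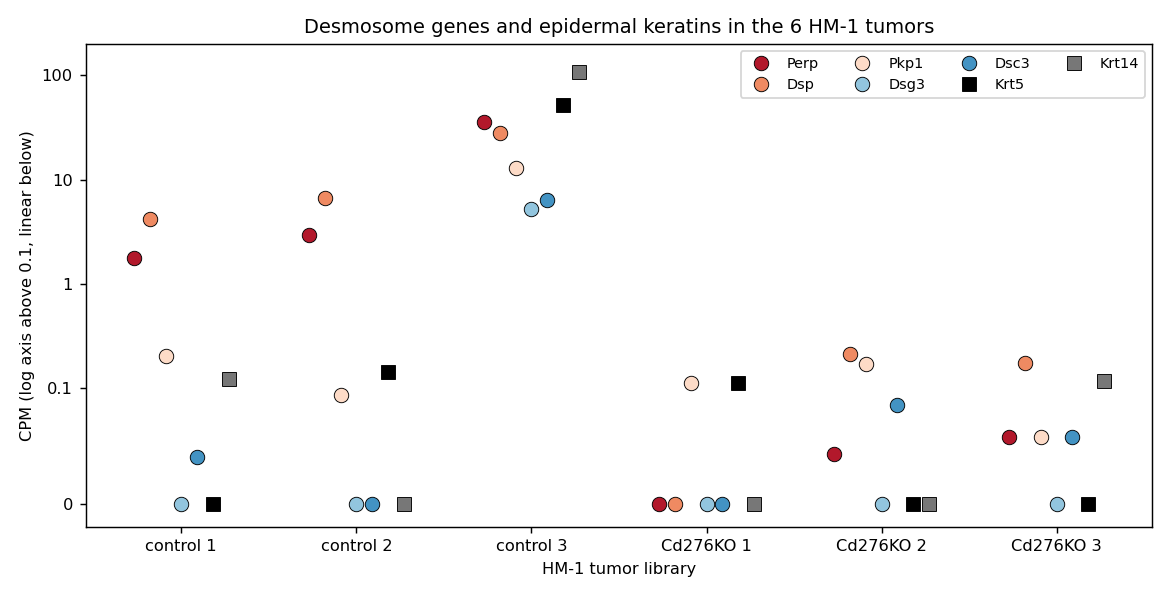
Level in CPM (y axis, logarithmic above 0.1 and linear below) of 5 desmosome genes (circles) and the epidermal keratins Krt5 and Krt14 (squares) in the 6 HM-1 tumor libraries (x axis); points of a library are spread sideways for legibility. All 7 genes peak in control tumor 3, and Perp and Dsp alone are above 1 CPM in control tumors 1 and 2.

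Cultures and tumors of HM-1 were then compared within each genotype. In the controls 1 of 5 genes tested was called, as higher in tumors, against 41.8% of 14609 genes, 25.3% as higher and 16.6% as lower. In Cd276KO 2 of 3 genes tested were higher in tumors and 1 lower, against 75.7% of 14330 genes called, 41.2% as higher and 34.5% as lower. Pkp3 was that gene in the controls, at 8.11 ± 4.04 CPM in tumors and 0.85 ± 0.15 CPM in culture (3.11 ± 0.46, adjusted p = 0.00237; 2.61 without control tumor 3). It was higher in Cd276KO tumors too, at 4.75 ± 1.12 against 0.63 ± 0.11 CPM (2.76 ± 0.27, adjusted p = 1.95e-05). The groups of Pkp3 did not overlap in either genotype, as held for 55.8% of all genes in controls and 78.8% in Cd276KO. Jup was higher in Cd276KO tumors than in Cd276KO cells (221.2 ± 23.9 against 127.2 ± 5.11 CPM; 0.66 ± 0.07, adjusted p = 4.54e-05) and was not called in controls (0.16 ± 0.15, adjusted p = 0.407). Pkp2 was called lower in Cd276KO tumors (-0.24 ± 0.10, adjusted p = 0.0426), with overlapping libraries. It was not called with upper-quartile scaling (-0.08, adjusted p = 0.469), with DESeq2 (0.0574), over all 18 libraries (0.199), or without Cd276KO cell library 3 (0.0933), Cd276KO tumor 2 (0.0905) or Cd276KO tumor 3 (0.0750). Perp did not pass the test between control tumors and control cells (-0.39 ± 1.01, adjusted p = 0.787), but without control tumor 3 it was lower in tumors, at 1.78 and 2.91 CPM against 14.4 to 18.5 CPM (-2.95, adjusted p = 0.000665). Without that tumor Pkp2 was also called lower (-0.50, adjusted p = 0.0461), and Dsp had a log2 fold change of 0.20 (adjusted p = 0.674). Perp and Dsp had 2 and 8 counts in the Cd276KO tumors and 0 and 13 in the Cd276KO cells, too few for the test.

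The Cd276KO effects in tumors and in cultures were not called different for any of 5 genes by edgeR, against 2.84% of 15623 genes, 1.72% as higher and 1.12% as lower. The difference was -2.29 ± 1.26 for Dsp (adjusted p = 0.463) and a fitted 3.13 ± 4.34 for Perp (adjusted p = 0.829). At an unadjusted p under 0.05 edgeR gave 1 of the 5, Jup (a difference of 0.49 ± 0.17), and limma voom with quality weights called 2 (Perp and Jup). The HM-1 Cd276KO groups held 0 counts of Perp in culture and 2 in tumors.

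The 11 other desmosome genes, the desmogleins and desmocollins of stratified epithelium, the plakins periplakin (Ppl) and envoplakin (Evpl), Pkp4 and corneodesmosin (Cdsn), gave 4 genes with enough counts in each comparison. In HM-1 cells Pkp4, an armadillo protein found also at adherens junctions, was higher in Cd276KO (133.6 ± 15.7 to 165.5 ± 3.85 CPM; 0.35 ± 0.09, adjusted p = 0.0340) and Evpl, an envelope plakin, was lower (16.0 ± 2.75 to 10.1 ± 0.85 CPM; -0.62 ± 0.14, adjusted p = 0.0196). In ID8 cells Evpl was higher (10.4 ± 1.24 to 25.8 ± 1.21 CPM; 1.39 ± 0.09, adjusted p = 6.81e-12) and Cdsn, an adhesive protein of the cornified layer, was lower (6.19 ± 0.35 to 3.23 ± 0.45 CPM; -0.86 ± 0.14, adjusted p = 1.24e-05). Evpl shared its directions in the lines with Perp and Dsp, and the difference between its effects was called (2.0 ± 0.18, adjusted p = 2.43e-06). Of all genes tested, edgeR called 27.7% in HM-1 cells, 60.7% in ID8 cells and 5.38% in tumors. In tumors edgeR called none of the 4, with 2 at an unadjusted p under 0.05, and DESeq2 and voom called 2 each. Of all 15345 genes in tumors, 3836 had an unadjusted p under 0.05 by edgeR, DESeq2 called 2465 and voom 3177. Pkp4 went the other way there than in HM-1 cells, at 102.4 ± 7.44 CPM in controls and 76.7 ± 4.73 CPM in Cd276KO (edgeR -0.38 ± 0.10, adjusted p = 0.0725). Its tumor effect minus its HM-1 culture effect was called by edgeR (-0.73 ± 0.14, adjusted p = 0.0152). Without control tumor 3 Cdsn was called lower. Dsg1a, Dsg3, Dsc1 and Dsc3 reached 3.23, 5.27, 1.98 and 6.36 CPM in control tumor 3 and had no more than 0.09 CPM in any other tumor. Dsg1b stood at 0.57 CPM there, Dsg1c had 1 count and Dsg4 none. The median log2 fold change over the tested members and over all genes was -0.73 and -0.01 in HM-1 cells, 0.05 and -0.01 in ID8 cells, and -0.77 and -0.03 in tumors. Without control tumor 3 the tumor medians were -0.48 and 0.005. In HM-1 cells and in tumors 5 members were tested. Perp and Dsp passed the filter there only through the controls, which fixed their direction, so these medians say little about the members as a set.

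**Figure D4:**
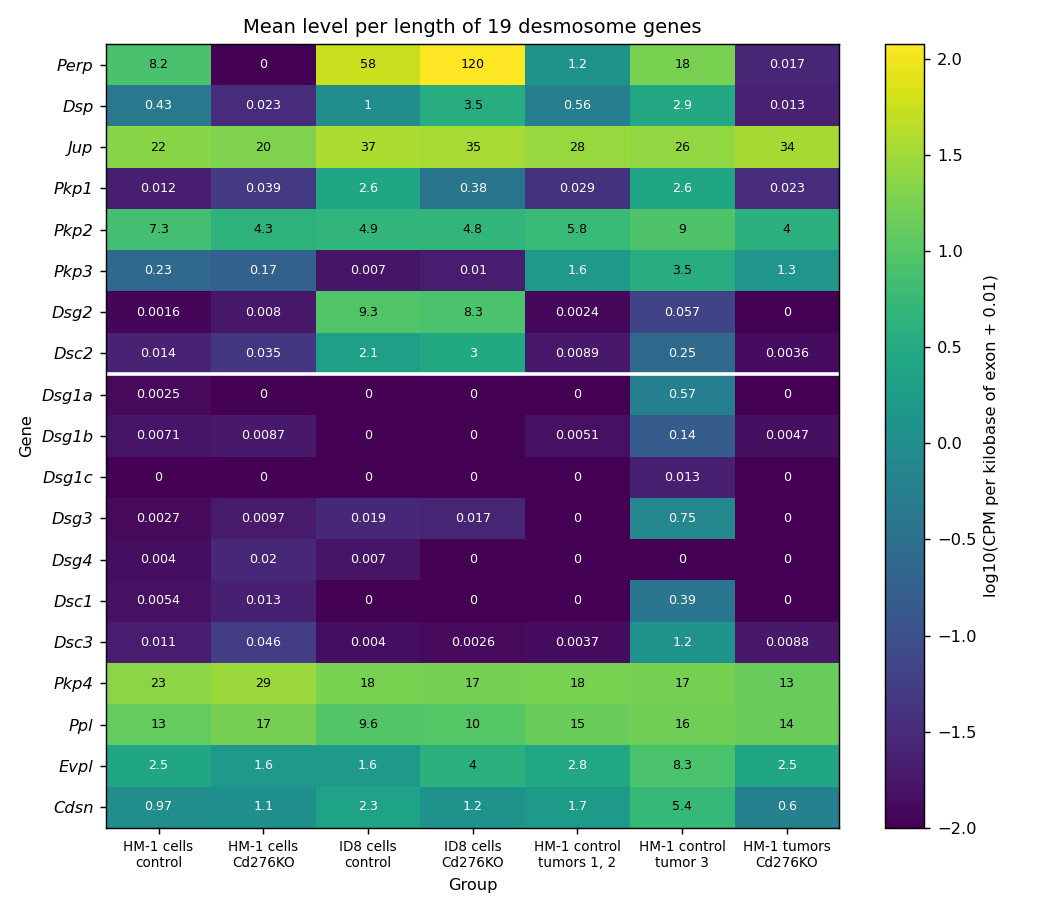
Mean level in CPM per kilobase of exon (numbers, and colour as log10 of the value plus 0.01) of the 8 desmosome genes (above the line) and 11 other desmosome genes (below) by group, with control tumor 3 in a column of its own. Jup and Pkp4 are high in every column, Dsg2 is high in ID8 only, and the epidermal cadherins Dsg1a, Dsg3, Dsc1 and Dsc3 appear in control tumor 3.

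Other junction and epithelial genes were counted by list. The edgeR counts with all libraries stand against 11.6% of all genes called higher and 16.1% lower in HM-1 cells. The shares were 29.4% and 31.3% in ID8 cells, and 2.2% and 3.18% in tumors. Among the PMP-22 family, to which Perp belongs, 2 of 4 tested genes were higher and 1 lower in HM-1 Cd276KO cells, led by Emp1 (3233 ± 243 to 5770 ± 90.5 CPM; 0.88) and Emp2 (-0.63). In ID8 Cd276KO cells 1 was higher and 2 lower, led by Pmp22 (33.8 ± 0.45 to 3.27 ± 0.25 CPM; -3.29) and Emp2 (-0.73). Of 6 tested adherens junction genes 1 was called in HM-1 cells, Ctnnb1 (β-catenin, the closest relative of Jup), which was higher (0.62). Without HM-1 control library 1 the counts were 4 higher and 2 lower. In that fit 3632 of all 12685 genes were called higher and 3859 lower. In ID8 2 of 10 were higher and 4 lower, led by Cdh1 (E-cadherin, 9.96 ± 0.74 to 1.99 ± 0.17 CPM; -2.24) and Nectin4 (-1.01). Of the tight junction genes, Cldn3 moved as Perp and Dsp did, from 56 to 2 counts in HM-1 cells (ratio 25.2, 95% interval 6.64 to 212.7, adjusted p = 0.00200) and from 6.10 ± 1.38 to 58.2 ± 2.22 CPM in ID8 cells (3.34, adjusted p = 1.56e-14). Ocln was lower in HM-1 cells (-2.64, with 94 counts in controls and 13 in Cd276KO). The counts were 1 higher and 2 lower of 6 in HM-1 and 3 higher and 1 lower of 4 in ID8. In HM-1 cells Cldn3 and Ocln passed the filter on low counts only through the controls. Lower was thus the only call open to them, and the count of lower genes says little about them.

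Hemidesmosome genes, whose proteins anchor keratin to the basement membrane, were called 2 higher and 2 lower of 8 in HM-1 Cd276KO cells, with Lama3 higher (1.55), and 4 higher and 3 lower of 7 in ID8, led by Col17a1 (-2.17) and Itgb4 (2.08). Krt18, a simple keratin to which desmoplakin ties junctions, was lower in HM-1 Cd276KO cells (1910 ± 254 to 1162 ± 21.7 CPM; -0.68) and higher in ID8 Cd276KO cells (397.7 ± 20.9 to 648.2 ± 34.4 CPM; 0.78), and Krt19 was higher in HM-1 (0.65). Of the simple keratins 1 of 5 was called in tumors, Krt20, as lower (-1.54). Among transcription and splicing regulators of epithelial genes, repressors included, 1 was higher and 2 lower of 9 in HM-1 cells, led by Esrp2 (-1.66) and Elf3 (-0.75). In ID8 cells 2 were higher and 5 lower of 8, led by the repressor Snai2 (-1.89) and Grhl1 (1.84), and in tumors 1 of 12 was called, Klf4, as lower (-0.84). In tumors 4 of the 12 had an unadjusted p under 0.05 by edgeR, DESeq2 called 2 and voom 5. Without control tumor 3 edgeR called 1 higher and 2 lower. These tumor counts and those that follow stand against 3836 of all 15345 genes at an unadjusted p under 0.05 by edgeR. DESeq2 called 2465 of all genes and voom 3177. Without control tumor 3 edgeR called 760 of 15766 genes higher and 925 lower. Of the p53 family and its targets, 1 was higher and 7 lower of 15 in HM-1 cells, led by Sesn2 (-0.85) and Mdm2 (-0.80). In ID8 6 were higher and 6 lower of 17, led by Fas (-1.80) and Pmaip1 (0.99), and in tumors 1 of 16 was called, Ccng1, as lower (-0.60). Of these 16, 8 had an unadjusted p under 0.05 by edgeR, DESeq2 called 5 and voom 7, and without control tumor 3 edgeR called 1 higher and 4 lower. No gene of the PMP-22, adherens, tight junction or hemidesmosome lists was called in tumors by edgeR, with 2, 2, 1 and 4 at an unadjusted p under 0.05. DESeq2 called 2, 1, 1 and 3, voom called 1, 3, 0 and 2, and edgeR without control tumor 3 called 1, 2, 0 and 2.

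Across all 18 libraries, Dsp followed Perp with a Pearson r of 0.93 on log2(CPM + 0.5), against 0.86 for Dsc2, 0.84 for Dsg2, 0.70 for Pkp1, 0.47 for Jup, 0.36 for Pkp2 and -0.57 for Pkp3. The 3 genes most like Perp among 12229 protein-coding genes were Yaf2 (0.99), Hmgn3 (0.98) and Dnajc15 (0.98). Those most like Dsp were Osbp2 (0.96), Herc3 (0.96) and Panx1 (0.95), and Osbp2 stood at 2.60, 0.13, 6.40 and 30.3 CPM on average in HM-1 control, HM-1 Cd276KO, ID8 control and ID8 Cd276KO cells. These coefficients describe 6 groups of libraries that share lines and genotypes, and genes were chosen for the highest values.

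The genes beside Perp and Dsp were taken by position. Of the 3 nearest protein-coding genes on either side of Perp, 3 could be tested in HM-1 cells: Hebp2 was higher in Cd276KO (2.43 ± 0.34, adjusted p = 0.00283), Tnfaip3 was lower (-0.73 ± 0.17, adjusted p = 0.0216) and Ifngr1 was not called (-0.05 ± 0.07, adjusted p = 0.658). Tnfaip3, an inhibitor of NF-κB signalling, was also lower in the Cd276KO tumors (-0.99 ± 0.19, adjusted p = 0.0389) and, by less, in ID8 Cd276KO cells (-0.21 ± 0.08, adjusted p = 0.0344), where Perp was higher. Gm4922, Arfgef3 and Olig3 were at or below 0.44 CPM on average in the HM-1 cells. Beside Dsp, the nearest gene Snrnp48 lies 6361 bases away and was not called in HM-1 cells (0.15 ± 0.13, adjusted p = 0.421), and Riok1 was lower by a small amount (-0.32 ± 0.08, adjusted p = 0.0217). Cage1, Ssr1 and Txndc5 were not called in HM-1 cells, and Bmp6 was too low for the test. In ID8 cells, where Dsp was higher, Ssr1 (0.36 ± 0.06, adjusted p = 7.63e-06) and Snrnp48 (0.40 ± 0.11, adjusted p = 0.00755) were higher and Txndc5 was lower (-0.26 ± 0.06, adjusted p = 0.000547).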

How the data were processed

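Per the labels' protocols, total RNA of cells or frozen tumors was extracted with the RNeasy Mini Kit and sequenced from standard Illumina libraries. Trim Galore, STAR and HTSeq, with build GRCm38 (mm10), are listed per the submitters' processing notes. Versions, annotation release, kit and strandedness were not stated there. The authors deposited raw read counts per gene for 18 samples, not normalized. The authors' own DESeq2 comparison, named in the series design, was not used.

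Titles gave each sample's group and number. Symbols, coordinates and exon lengths came from GENCODE M21 (53861 of 54752 identifiers matched with version), and promoter sequences from RefSeq (GRCm38.p6; 2 of the 8 genes matched). CPM is counts per 1000000 of a library's total, given as mean ± SD over n = 3. Tests used edgeR 4.0.16 in R 4.3.3 (TMM, filterByExpr, robust glmQLFit and glmQLFTest on the libraries compared, Benjamini-Hochberg over all genes tested, called at an adjusted p under 0.05), with SE as the log2 fold change divided by the square root of F. Ratios of low counts carry exact 95% intervals, and a total of 0 counts was set to 3; both cover counting error only. Alternatives used limma 3.58.1 and DESeq2 1.42.0, other scalings, no filter, a replicate block, 1 fit over all libraries and each library left out. The scripts were tested on simulated data.

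The members, lists and tests were chosen with earlier results of these data known. The genes named are the 8 members, the 11 other desmosome genes, Cd276, Krt5, Krt14, Krt1 and Krt10, the 2 called genes with the largest fold change per list and Cd276KO comparison, and the 3 genes most like Perp and Dsp. A few genes that this rule takes are not reported here. Neighbours were taken by position, and Upk3b, Bnc1 and other markers were named after their values were seen. With strandedness unknown, reads of a gene and its antisense partner may be mixed.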

Additional observations from a re-analysis of the deposited data

Results flagged for a closer look

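The Cd276KO effect differed between ID8 and HM-1 cells for 4 of the 8 desmosome genes by an interaction term over 12 libraries (edgeR, adjusted over all genes). The same test called 40.4% of all 14208 genes, so the number of called members is near that of all genes. The ID8 effect minus the HM-1 effect was 12.71 on the log2 scale for Perp (adjusted p = 9.74e-10), 6.03 for Dsp (5.44e-08), -4.40 for Pkp1 (0.000283) and 0.77 for Pkp2 (0.000156). The Perp value rests on an HM-1 group with no count, and that of Pkp1 on 4 and 12 counts in the HM-1 groups. Groups of 3 libraries are too small for a test of outlying samples.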

How the results depend on the processing

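Over all member results and alternatives, 623 kept their side of the threshold, 22 lost and 15 gained a call, and none reversed. The Cd276KO calls in cultures of Perp, Dsp, Pkp1, Pkp2 and Dsc2 held in every alternative but the fit over all 18 libraries, where Perp (adjusted p = 0.245), Pkp1 (0.0605) and Dsc2 (0.499) were lost in ID8. DESeq2 gave Perp no adjusted p in tumors.

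The count of called genes in HM-1 cells (3452) was 7559 with limma voom and 1725 to 7491 with a library left out, the highest without control 1. In ID8 (7849; 4 members) it was 4260, with 1 member, in the fit over all libraries. In tumors (826; 2 members) it was 2465 with DESeq2, 3177 with voom, 4001 with 6 members over all libraries, and 0 to 1685 with a library left out (0 to 2 members). It was 1 without Cd276KO tumor 1, 0 without Cd276KO tumor 2 or 3 (2851 and 2410 genes at an unadjusted p under 0.05 by edgeR), and 1685 without control tumor 3. With no filter on low counts 0 members were called in tumors, though 4 had an unadjusted p under 0.05 by edgeR. For control tumors against cells (6107; 1 member) voom gave 9490 and the fit over all libraries 9974, each with 3 members, and 1 to 3 members were called with a library left out. The tumor minus culture difference (443; 0 members) gave 953 with DESeq2, 3062 with 2 members with voom, and 225 to 913 with a library left out. The cause was not tested.

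Same-numbered libraries had r from -0.01 to 0.03 in HM-1 cells and -0.63 to -0.01 in tumors. In ID8 every library correlated best with its own number (0.07 to 0.28, against -0.27 to 0.06 for other numbers), a hint from the data and not the design. Since r was not over 0.1 in every pair, the numbers were not taken to pair the libraries. With a replicate block edgeR called 2469 genes in HM-1 cells, 8329 in ID8, 0 in tumors with 0 members (2726 genes and 3 members at an unadjusted p under 0.05) and 69 in the tumor minus culture difference. In the tumors Perp then had an adjusted p of 0.0840 and Dsp of 0.0880.

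Upper-quartile scaling moved the median log2 value of all genes between tumors and cells from 0.05 to 0.19 in controls and from 0.08 to 0.25 in Cd276KO, and the split of called genes in controls from 3689 higher and 2418 lower to 4165 and 1701. Members under 10 counts in a group have only counting intervals to limit them.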
